A study of Homo sapiens with 60 samples.

Results

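The genes described are the 45 that encode subunits of glutamate receptors and of GABA-A receptors, chosen by gene symbol (GRIA, GRIN, GRIK, GRID, GRM and GABR) from the 37334 genes of the deposited table. They comprise 4 AMPA, 7 NMDA, 5 kainate, 2 delta and 8 metabotropic glutamate receptor genes and 19 GABA-A receptor genes. Of these 45 genes, 23 reached 1 count per 1e+06 assigned reads (CPM) in at least 3 libraries and were tested with the 15263 genes that did so. The cells were SH-SY5Y, a line from a human neuroblastoma (genotype WT per the labels), plated at passage 39 and put through a neuronal differentiation protocol. Lead (Pb) was present in the medium at 0, 0.16, 1.26 or 10 µM from day 5 of that protocol onward, and was renewed with the medium. Dishes were collected at days 6, 9, 12, 15 and 18, with 3 dishes per group, so that 60 libraries represent 20 groups. All groups share the 1 line, the passage and the differentiation protocol, and the 0 µM dishes are the only controls.

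Glutamate opens the ionotropic AMPA, NMDA and kainate receptors, which are assembled as tetramers of subunits from within each family, and it also acts on the G protein-coupled metabotropic receptors. GABA opens the chloride channels known as GABA-A receptors, pentamers that commonly combine alpha and beta subunits with a gamma or delta subunit. NMDA receptors need the GRIN1 subunit together with a GRIN2 or GRIN3 subunit, and Pb is known as a blocker of these receptors.

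Of the 7 NMDA subunit genes, 3 were too low to test. GRIN2A, which encodes a subunit of mature forebrain synapses, had 4 reads in all 60 libraries together and at most 3 in a single library. GRIN2B, the GRIN2 subunit of early brain development, had 5 reads in all and at most 2 in a library. GRIN3A, a subunit that lowers calcium entry, had 312 reads in all and a highest value of 0.623 CPM. For scale, 3 reads corresponded to between 0.0594 and 0.181 CPM at the library depths of this series, so that GRIN2A and GRIN2B did not rise above 3 reads in any dish, whereas their obligatory partner GRIN1 had 32755 reads in all. Transcription of GRIN2A and GRIN2B at a lower level was not detectable at this depth. GRIN3B passed the filter with only 3 libraries at 1 CPM and a highest value of 1.51 CPM. Its exons overlap 85 bases of TMEM259, a gene on the opposite strand with up to 165.1 CPM. The strand setting of the counting was not given in the sources used here, so reads within that overlap cannot be told apart.

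The start regions of 2 abundant kainate receptor genes and of the 2 nearly undetected GRIN2 genes are shown because these 4 genes lie far apart in level. Each is the RefSeq sequence on GRCh38.p14 over the 300 bases around the first start listed for the gene, 5′ to 3′ on the gene's strand, with every CG dinucleotide in capitals. For GRIN2A that start lies inside the gene, which reaches to position 10182908 on this build.
GRIK2, chr6:101393458-101393757, plus strand: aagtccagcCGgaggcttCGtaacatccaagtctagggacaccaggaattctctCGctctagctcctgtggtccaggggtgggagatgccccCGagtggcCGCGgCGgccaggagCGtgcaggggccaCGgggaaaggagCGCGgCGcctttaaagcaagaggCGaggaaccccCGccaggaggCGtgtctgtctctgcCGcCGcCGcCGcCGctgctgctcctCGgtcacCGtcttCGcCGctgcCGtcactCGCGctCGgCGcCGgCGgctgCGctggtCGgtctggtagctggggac
GRIK4, chr11:120511498-120511797, plus strand: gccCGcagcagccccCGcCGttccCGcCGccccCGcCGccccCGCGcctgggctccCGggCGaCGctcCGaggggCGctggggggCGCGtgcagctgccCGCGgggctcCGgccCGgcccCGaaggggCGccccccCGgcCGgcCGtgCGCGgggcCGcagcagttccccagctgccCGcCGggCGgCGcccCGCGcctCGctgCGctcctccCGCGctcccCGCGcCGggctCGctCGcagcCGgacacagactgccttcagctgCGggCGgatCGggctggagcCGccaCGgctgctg
GRIN2A, chr16:10182018-10182317, minus strand: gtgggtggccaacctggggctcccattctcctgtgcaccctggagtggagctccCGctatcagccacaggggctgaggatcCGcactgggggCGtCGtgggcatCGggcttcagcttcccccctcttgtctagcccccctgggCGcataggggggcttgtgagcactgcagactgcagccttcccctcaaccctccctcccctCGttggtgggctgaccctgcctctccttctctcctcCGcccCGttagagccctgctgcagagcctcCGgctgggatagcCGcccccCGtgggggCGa
GRIN2B, chr12:13982085-13982384, minus strand: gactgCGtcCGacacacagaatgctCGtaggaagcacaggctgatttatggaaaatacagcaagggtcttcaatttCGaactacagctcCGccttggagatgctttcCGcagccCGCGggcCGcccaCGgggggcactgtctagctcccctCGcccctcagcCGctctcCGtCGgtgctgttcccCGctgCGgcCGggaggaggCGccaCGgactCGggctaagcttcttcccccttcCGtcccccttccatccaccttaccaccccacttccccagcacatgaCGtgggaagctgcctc

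The GRIK4 window holds 49 CG dinucleotides and the GRIK2 window 33, against 22 for GRIN2B and 13 for GRIN2A. Kainate receptor genes not printed break this order: GRIK5, also abundant, has 12, and GRIK3, which was not tested, has 37. RefSeq start regions were matched for 32 of the 45 genes, and 24 of them hold the outermost start of the gene, while 8, GRIN2A and GABRP among them, lie inside it. The median was 26 CG dinucleotides (range 5 to 49) over the 15 matched genes that were tested and 11 (range 2 to 41) over the 17 that were not, against 14 over all 27305 start regions and 26 over those of the tested genes of the whole table. The letters GGGCGG, searched on both strands, occurred in 10 of 15 tested and 5 of 17 untested receptor genes, and in 44.6% of all start regions. TATAAA occurred in 0 of the 15 and in 1 of the 17, and in 12.0% of all. The median of the tested receptor genes equalled that of tested genes at large. The 2 sets overlapped: GRIN2B was nearly undetected with 22 such dinucleotides, and GABRP, which was tested, has 5.

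The whole series had between 16.6 and 50.5 M assigned reads per library (M stands for 1e+06). Library names in the labels carry 1 prefix for all day 18 libraries and another for those of days 6 to 15. What the prefix marks is not given in the sources used here, so that it and day 18 cannot be told apart in comparisons between days, while Pb was compared within days. Long transcripts were low in 2 libraries. Relative to its day, replicate 1 of the 0 µM dishes of day 18 had a slope of -0.51 in log2 level per log10 of transcript length, and replicate 3 of the 10 µM dishes of day 6 had -0.49, with the next lowest slope at -0.19. The label of the line was checked on 11 markers of neuroblastoma and sympathetic neurons, all of which reached 1 CPM in some library. PHOX2A was at 97.7 to 1882 CPM and DBH, which makes noradrenaline, at 335.0 to 12048 CPM. Of 7 markers of central inhibitory neurons GAD2 was at 0 in every library and GAD1 at most at 0.404 CPM, but DLX6 was at 4.98 to 23.6 CPM, and SLC32A1 and DLX5 reached 3.81 and 3.75 CPM. Of 6 markers of central excitatory neurons NEUROD6 was at 0 in every library, and SLC17A7 reached 3.07 CPM.

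Levels between genes are compared per kilobase of merged exons. At day 6 without Pb, the kainate receptor genes GRIK5, GRIK4 and GRIK2 stood high in the order, with 14.7 ± 1.07, 12.2 ± 0.856 and 9.52 ± 0.444 CPM per kilobase (SD, n = 3). The ranges of the 3 libraries did not overlap between these neighbours. GRIN1 with 4.46 and GRM7 with 3.61 CPM per kilobase came next and overlapped each other, then GABRA3 with 2.77, which was apart from both neighbours. GRIA2 (2.06), GRM2 (2.00) and GRIA3 (1.98 CPM per kilobase) could not be ordered.

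By day 18 the order had shifted. GRIK4 with 12.9 ± 0.420 CPM per kilobase now stood above the other kainate receptor genes. GRIK5 (7.14), GABRD (6.84) and GRIK2 (6.31 CPM per kilobase) overlapped their neighbours, followed by GABRA3 with 3.80 and GRIN1 with 2.85 CPM per kilobase. The kainate receptor genes together held 36.4 ± 0.190 CPM per kilobase at day 6 and 26.5 ± 0.850 at day 18. AMPA receptor genes together went from 5.50 ± 0.418 to 3.30 ± 0.687 CPM per kilobase.

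**Figure D1:**
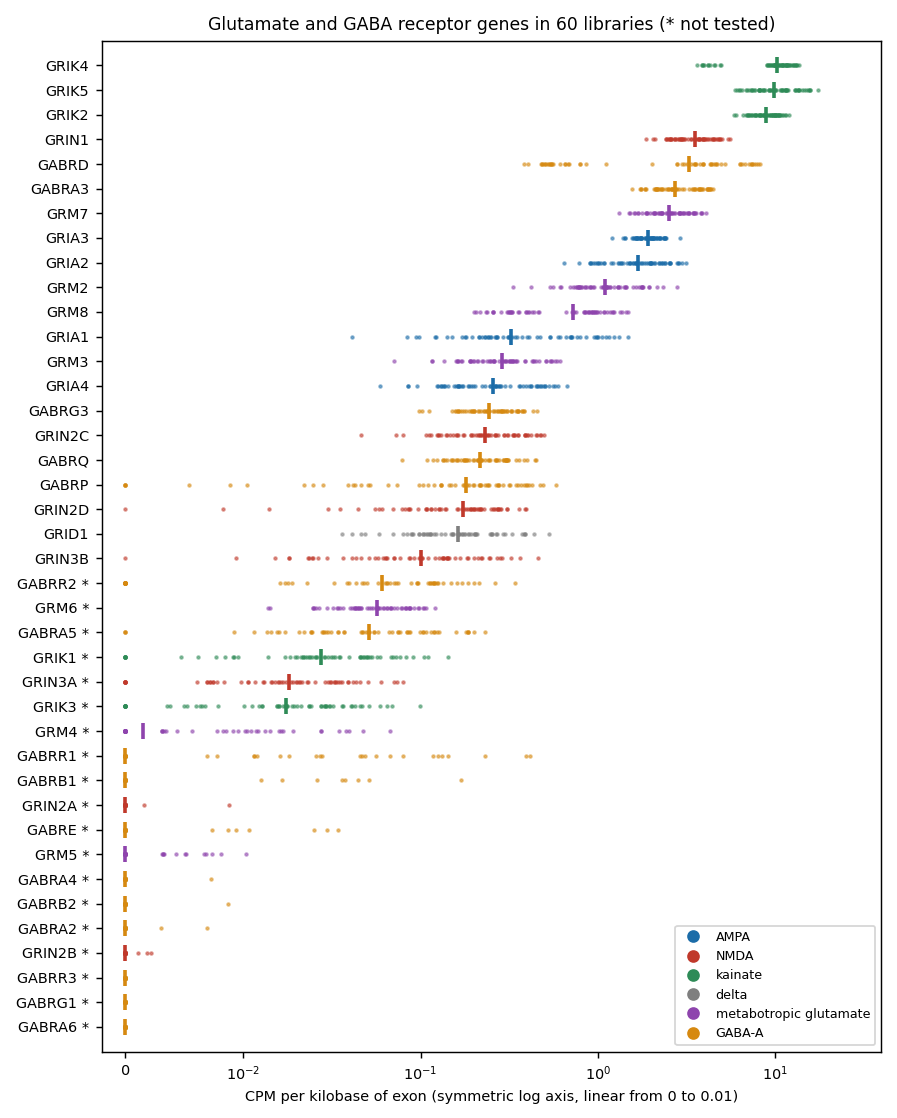
CPM per kilobase of exon (symmetric log axis) of the receptor genes described, 1 point per library and a bar at the median of the 60 libraries, coloured by receptor family; an asterisk marks genes not tested. The 3 tested kainate receptor genes lie at the top, and GABRA6, GABRG1 and GABRR3 at the bottom have no read in any library.

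Untested genes of the other families were low in nearly all libraries. GABRA6, GABRG1 and GABRR3 had no read in any of the 60 libraries. GABRR1 had 2 libraries above 1 CPM, the highest at 1.46 CPM. The highest library was at 0.811 CPM for GABRA5, 0.576 for GABRR2, 0.361 for GABRB1 and 0.108 CPM for GABRE. For GABRA4, GABRA2 and GABRB2 it was at 0.0868, 0.0788 and 0.0791 CPM, which is 3 or 4 reads. Among glutamate receptor genes the highest values were 0.947 CPM for GRIK3, 0.785 for GRM6, 0.603 for GRIK1, 0.594 for GRM4 and 0.0868 CPM for GRM5.

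The comparison of days without Pb describes receptor genes over the days of the differentiation protocol. By day 18, the delta subunit gene GABRD, whose receptors lie largely outside synapses, had risen most, and GRIA1, which encodes the AMPA receptor subunit GluA1, had fallen most. Of the 23 tested genes 17 differed between day 18 and day 6, 6 higher and 11 lower, where 66.8% of all tested genes differed, 32.1% higher and 34.7% lower (limma with Benjamini-Hochberg adjustment over all 15263 genes, threshold 0.05). At day 15 there were 12, of which 4 rose and 8 fell (58.3% of all genes, 26.2% and 32.2%). At day 12 there were 13, of which 2 rose and 11 fell (56.2%, 21.6% and 34.6%). A correction for GC content and length, fitted on 14132 genes, turned the balance at day 18 to 10 higher and 7 lower (32.2% and 36.2% of all genes), and that at day 12 to 5 higher and 8 lower (25.5% and 31.5%). Under it GRIA2, GRIA3, GRIA4 and GRIN1 no longer passed at day 18, and GABRG3, GABRP, GRIK4 and GRIN3B did, all 4 higher. At day 9 there were 2, both lower and 0 higher (5.14% of all genes, 2.51% lower and 2.63% higher), with 5 at an unadjusted p below the threshold and 2 each by edgeR and DESeq2. The median log2 difference of all genes at day 12 was -0.11, and -0.01 after median-ratio rescaling, which gave 2 higher and 8 lower receptor genes (27.3% and 25.8% of all genes). In bulk RNA, fewer cells of a type and less RNA per cell cannot be told apart.

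GABRD (chromosome 1, 2019345 to 2030758) was at 0.911, 1.09 and 1.24 CPM in the 3 libraries of day 6 and at 1.19, 0.875 and 1.81 CPM at day 9. It was then at 8.07, 6.81 and 8.88 CPM at day 12, at 9.93, 9.78 and 10.2 at day 15, and at 16.3, 15.4 and 14.8 CPM at day 18. All libraries from day 12 on lay above all of days 6 and 9. The difference from day 6 was 2.10 ± 0.15 on the scale of log2(CPM + 1) at day 12 (SE, limma adjusted p = 1.61e-16), 2.40 ± 0.15 at day 15 and 2.99 ± 0.15 at day 18 (adjusted p = 2.97e-22).

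GABRA3 (chromosome X, 152166234 to 152451315), an alpha subunit gene, had 11.0, 10.2 and 11.2 CPM at day 6, 8.34, 8.42 and 7.20 at day 12, and 13.7, 14.5 and 16.3 CPM at day 18. It was lower at day 12 by 0.39 ± 0.12 and higher at day 18, by 0.42 ± 0.12, on the log2(CPM + 1) scale (limma adjusted p = 0.00277). The day 12 call was lost after the correction for GC content and length (-0.28, adjusted p = 0.0537). GABRG3, a gamma subunit gene, was higher at day 15 (0.50 ± 0.19), and that call was lost without any of 3 single libraries. At day 12 GABRG3 passed by edgeR (0.61) and DESeq2 (0.63), and by limma only after that correction (0.48, adjusted p = 0.0247) or without replicate 1 of day 12 (0.62, adjusted p = 0.00559). GABRQ, the theta subunit gene in 1 cluster with GABRA3 and GABRE on the X chromosome, stood between 0.723 and 2.74 CPM in the libraries without Pb. It passed at no day, except at day 12 after the correction (0.52, adjusted p = 0.0315) and without replicate 2 of day 6 (0.56, adjusted p = 0.035).

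GABRP (chromosome 5, 170782720 to 170814047), the pi subunit gene known mainly from epithelia and reproductive tissue, fell at day 12 and stood higher again at day 18. It was at 1.00, 0.877 and 1.46 CPM at day 6, and at 0.0386, 0.185 and 0 CPM at day 12, which is 1, 6 and 0 reads. At day 18 it was at 1.5, 2.15 and 1.57 CPM. The fall was 0.97 ± 0.18 on the log2(CPM + 1) scale at day 12 and 0.66 ± 0.18 at day 15. At day 18 it did not pass, except after median-ratio rescaling (0.40, adjusted p = 0.0424), after the correction for GC content and length (0.45, adjusted p = 0.0244) and without replicate 3 of day 6 (0.49, adjusted p = 0.0255).

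Beside these values, RNA of some keratins stood higher in the day 18 libraries. Of 7 markers of keratinocytes, 5 reached 1 CPM in the day 18 libraries without Pb, and their summed level was 80.4 to 119.7 CPM, against 23.5 to 43.7 CPM over the libraries without Pb of days 6 to 15. KRT5 stood at 30.6, 28.7 and 44.0 CPM in those 3 day 18 libraries, and KRT1 was at 0 in all. KRT10 went the other way, at 10.5 to 20.8 CPM in the 12 libraries of day 18 against a median of 25.7 CPM over all 60. The sum of 8 Schwann and glial markers was 4.19 to 5.65 CPM at day 6 and 15.6 to 16.0 CPM at day 18 without Pb, of which 3 reached 1 CPM in a day 18 library, while SOX10 stayed at or below 0.280 CPM in all 60. The part of RNA from such cells in the levels of GABRP and of the other receptor genes was not tested.

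Among AMPA receptor genes, all 4 were lower at day 18 than at day 6. GRIA1 (chromosome 5, 153489615 to 153813869) was at 7.38, 5.87 and 6.71 CPM at day 6, 5.97, 2.72 and 3.25 at day 9, 1.27, 1.91 and 1.60 at day 12, 1.38, 1.29 and 1.44 at day 15, and 0.246, 0.851 and 1.02 CPM at day 18. Every library of days 12 to 18 was below every library of days 6 and 9. It fell by 1.56 ± 0.23 by day 12, 1.69 ± 0.23 by day 15 and 2.19 ± 0.23 by day 18 on the log2(CPM + 1) scale (limma adjusted p = 1.7e-11 at day 18).

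GRIA2, the subunit that makes AMPA receptors impermeable to calcium, followed a dip. Its libraries were at 13.8, 11.5 and 11.9 CPM at day 6, 15.3, 12.6 and 15.5 at day 9, 4.71, 6.14 and 6.24 at day 12, 8.36, 8.13 and 7.83 at day 15, and 6.53, 11.0 and 9.88 CPM at day 18. GRIA4 fell by 0.84 ± 0.23 by day 12 and was at 1.79 ± 0.714 CPM at day 18 against 3.21 ± 0.521 at day 6. GRIA3 was at 11.8, 11.3 and 11.2 CPM at day 6 and at 7.0, 8.27 and 10.2 at day 18. Without replicate 1 of day 18, one of the libraries low in long transcripts, the day 18 differences of GRIA2, GRIA3 and GRIA4 no longer passed (-0.23, -0.29 and -0.57, limma adjusted p = 0.203, 0.0862 and 0.054), nor did they after the correction for GC content and length (-0.19, -0.23 and -0.42, adjusted p = 0.182, 0.11 and 0.0968). Within the family, GRIA1 went from 20.1% to 3.36% of the summed level per kilobase between days 6 and 18. At day 12 GRIA3 held 62.4% and GRIA2 26.2%, and at day 18 they held 44.8% and 45.8%.

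GRIK4 (chromosome 11, 120511748 to 120988906), a high-affinity kainate receptor subunit gene, dipped at day 12 and returned. Its libraries without Pb were at 72.0, 71.5 and 80.9 CPM at day 6, 55.8, 61.1 and 63.9 at day 9, 30.8, 27.9 and 28.1 at day 12, 65.2, 75.2 and 68.3 at day 15, and 76.4, 81.3 and 80.2 CPM at day 18. Day 12 lay below every other day, and day 18 overlapped day 6. It was lower by 0.31 ± 0.084 at day 9 (log2(CPM + 1) scale, limma adjusted p = 0.0186) and by 1.34 ± 0.084 at day 12 (adjusted p = 8.68e-19), and did not pass at days 15 and 18, except at day 18 after the correction for GC content and length (0.21, adjusted p = 0.0228). The day 9 call was lost without replicate 3 of day 6 or replicate 1 of day 9 (adjusted p up to 0.12).

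The other tested kainate receptor genes were lower at day 18 than at day 6. GRIK5 (chromosome 19, 41998324 to 42070206), the second high-affinity subunit gene, was at 68.7, 70.8 and 61.5 CPM at day 6 and at 33.8, 31.2 and 32.7 at day 18, with no overlap, and fell by 1.02 ± 0.16. GRIK2 (chromosome 6, 101393708 to 102070083), whose subunit GluK2 can form channels alone, was at 56.1, 52.0 and 56.7 CPM at day 6 and at 33.9, 34.7 and 40.4 at day 18, with no overlap, and fell by 0.58 ± 0.10. At day 12 both were also lower (-0.41 and -0.30), but after median-ratio rescaling neither of these passed. Neither passed by edgeR (adjusted p = 0.133 for GRIK5 and 0.0537 for GRIK2) or by DESeq2 (0.156 and 0.0759). The GRIK5 call at day 12 was also lost without the filter on low values and without any of 3 single libraries (limma adjusted p up to 0.328). GRIK2 at day 12 also did not pass after the correction for GC content and length (-0.16, limma adjusted p = 0.0733). At day 15 GRIK5 was lower as well, while GRIK2 did not pass. GRIK4 rose from 33.4% of the kainate receptor level per kilobase at day 6 to 48.7% at day 18, after 20.1% at day 12. These shares are descriptions without a test.

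**Figure D2:**
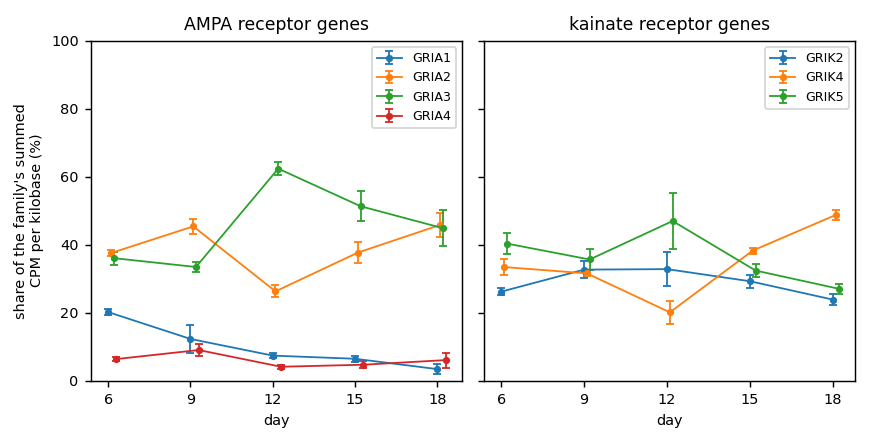
Share of each gene in its family's summed CPM per kilobase in the libraries without Pb, by day (mean and SD of 3 libraries). GRIA1 declines from 20.1% at day 6 to 3.36% at day 18, and GRIK4 dips to 20.1% at day 12.

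GRIN1 (chromosome 9, 137139154 to 137168756), the subunit common to all NMDA receptors, was at 25.7, 25.2 and 18.9 CPM at day 6 and at 15.1, 13.3 and 16.2 CPM at day 18. The day 18 libraries were all below those of day 6, and the fall was 0.60 ± 0.22 on the log2(CPM + 1) scale (limma adjusted p = 0.0132). That call was lost without any of 3 single libraries (adjusted p at most 0.0572) and after correction for GC content and length. GRIN2C and GRIN2D, the GRIN2 genes that were tested, rose from low levels. GRIN2C was at 1.23, 0.212 and 0.511 CPM at day 6 and at 1.56, 1.63 and 2.17 at day 18 (0.80 ± 0.22). GRIN2D was at 0.820, 0.696 and 0.547 CPM at day 6 and at 1.37, 1.84 and 1.99 at day 18 (0.69 ± 0.21). The day 18 libraries of both genes were above all libraries of day 6. GRIN1 held 91.1% of the family's level per kilobase at day 6 and 74.6% at day 18, and GRIN2C went from 2.82% to 10.1%. GRID1, which encodes a delta receptor subunit that acts in synapse formation, passed at no day and stood at 0.410 to 2.23 CPM in the libraries without Pb.

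The metabotropic glutamate receptor genes moved in both directions. GRM3 rose from 0.839 ± 0.220 CPM to 1.97 ± 0.530 CPM between days 6 and 18 (0.68 ± 0.22 on the log2(CPM + 1) scale). GRM2, which like GRM3 inhibits adenylyl cyclase, was at 7.38, 6.17 and 5.40 CPM at day 6 and at 2.51, 2.69 and 2.41 at day 18, and fell by 1.04 ± 0.18.

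GRM7 and GRM8 belong to a further group, known for presynaptic inhibition of release. GRM7 (chromosome 3, 6861115 to 7741533) was at 16.4, 16.5 and 13.6 CPM at day 6, 11.1, 6.97 and 11.3 at day 9, 8.19, 7.31 and 7.60 at day 12, 14.8, 12.6 and 14.1 at day 15, and 5.68, 8.82 and 9.70 CPM at day 18. It was lower at days 9, 12 and 18 and overlapped day 6 again at day 15. Its call at day 9 (-0.63 ± 0.17) was lost without any of 3 single libraries (adjusted p up to 0.227). GRM8 (chromosome 7, 126438598 to 127252941) was at 3.69, 3.93 and 4.96 CPM at day 6 and 5.18, 4.22 and 3.76 at day 12, and then at 1.41, 1.12 and 0.883 at day 15 and 1.59, 1.80 and 1.87 CPM at day 18. All libraries of days 15 and 18 lay below all of days 6 to 12, with -1.28 ± 0.17 at day 15 against day 6 (limma adjusted p = 1.92e-08) and -0.91 ± 0.17 at day 18.

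**Figure D3:**
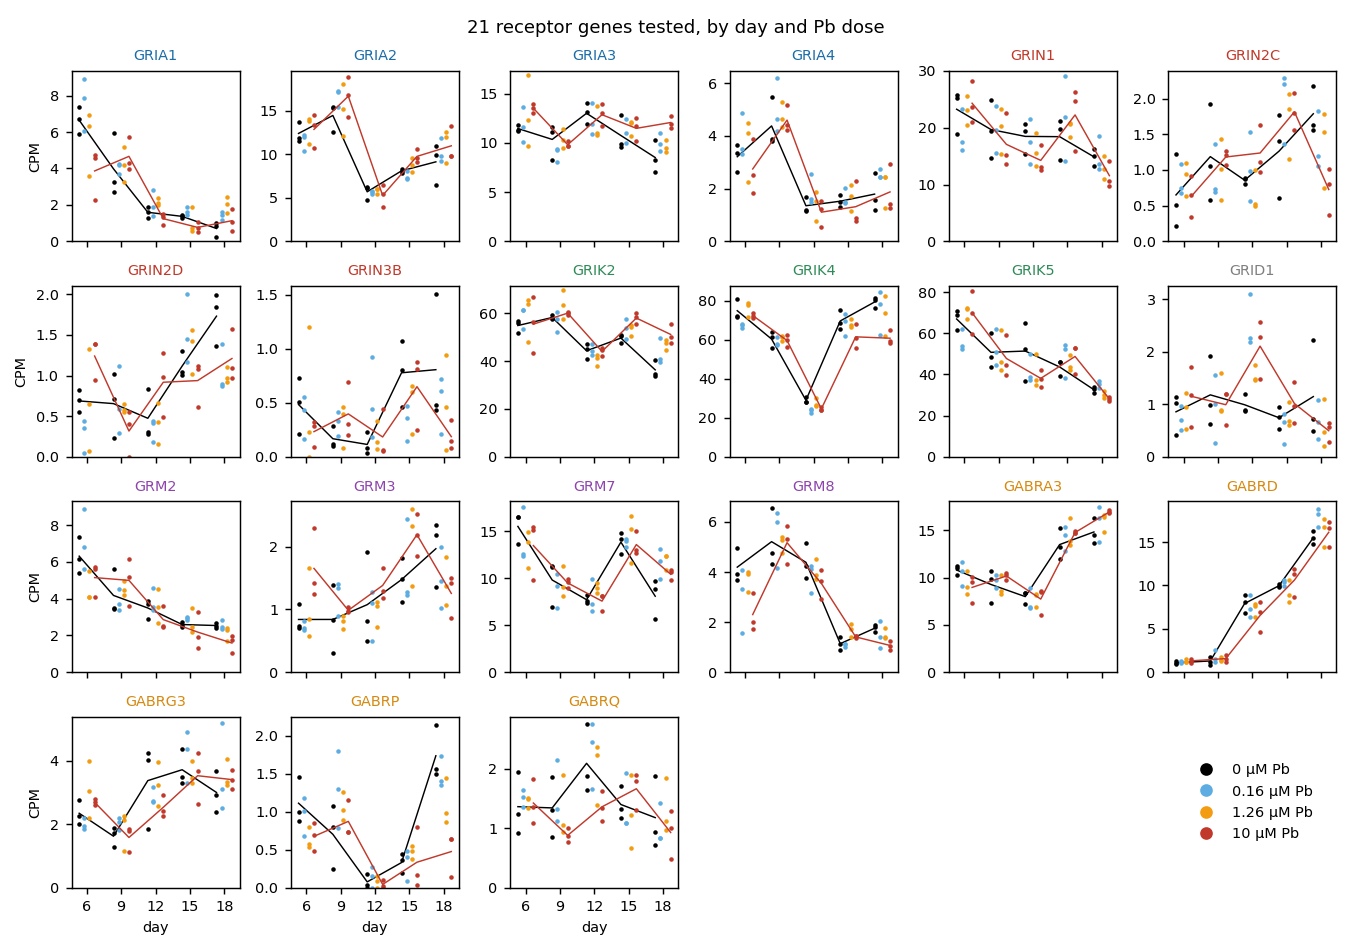
CPM of 21 tested genes by day, 1 point per library coloured by Pb dose; lines join the means of 3 libraries at 0 µM (black) and 10 µM (red). GABRD climbs from day 12, GRIA1 declines, GRIK4 dips at day 12, and the 2 lines lie close together for most genes before day 18.

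The comparison of Pb with 0 µM asks which receptor genes differ with exposure. Averaged over the 5 days, 4 of the 23 genes differed at 10 µM, 1 higher and 3 lower, where 15.1% of all tested genes did, 6.93% higher and 8.13% lower. Both edgeR and DESeq2 called 3 of the 23. At 1.26 µM none passed (3.84% of all genes), with 1 at an unadjusted p below the threshold, and at 0.16 µM none passed (0.124%), with 3 at an unadjusted p below it. By edgeR and DESeq2 the count was also 0 at these 2 doses.

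Within days, the calls of receptor genes at 10 µM were all at day 18. There 6 genes differed, 2 higher and 4 lower, against 28.9% of all genes (12.1% higher and 16.9% lower, but 15.8% and 12.6% after median-ratio rescaling), and edgeR and DESeq2 called 5 each. None passed at 10 µM at day 6 (0.655% of all genes passed), day 9 (1.41%), day 12 (5.37%) or day 15 (5.68%), with 4, 0, 4 and 2 of the 23 at an unadjusted p below the threshold and 0 by edgeR and by DESeq2 on each of these days. At 1.26 µM, 3 genes passed at day 18 (12.4% of all genes) and none at day 6 (0.0%), day 9 (0.4%), day 12 (0.0459%) or day 15 (1.26%). At 0.16 µM none passed at day 6 (0.0%), day 9 (0.0131%), day 12 (0.0197%), day 15 (0.0131%) or day 18 (6.34%), where limma's unadjusted p was below the threshold for 1, 1, 2, 0 and 3 of the 23 and DESeq2 called 1 gene, GRM7 at day 18. At the 4 earlier days at 1.26 µM the counts at an unadjusted p were 2, 0, 0 and 0, with no call by edgeR or DESeq2. Several of the day 18 comparisons share the same 3 libraries without Pb.

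**Figure D4:**
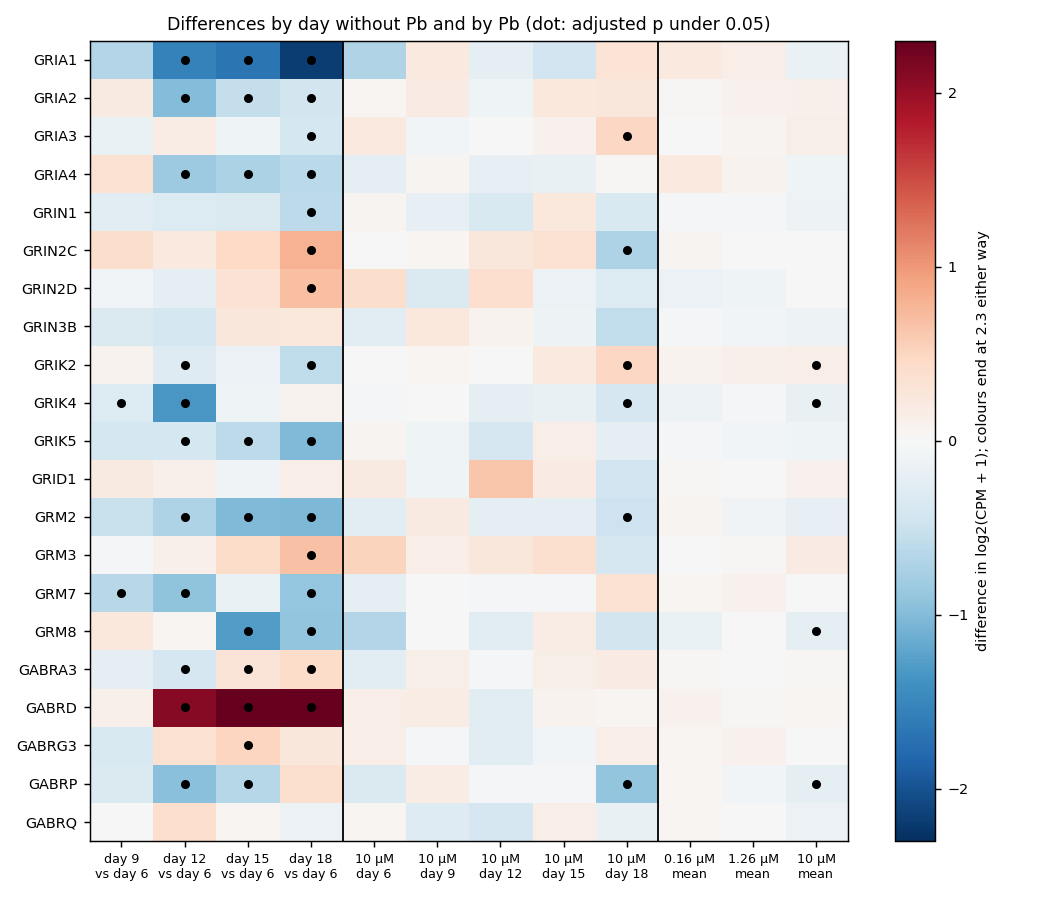
Difference in log2(CPM + 1) of 21 tested genes in 12 comparisons, in colour, with a dot where the limma adjusted p is below 0.05. The 4 day comparisons hold most dots, the 10 µM comparisons have dots only at day 18, and the mean over days at 10 µM has 4.

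GRIK4 was lower with 10 µM Pb. Its libraries at 10 µM were at 73.8, 72.0 and 71.3 CPM at day 6, 59.9, 62.3 and 56.4 at day 9, 25.7, 24.2 and 23.9 at day 12, 60.7, 67.8 and 55.8 at day 15, and 58.1, 59.3 and 64.7 CPM at day 18. Set against the values without Pb given above, the mean was lower on 5 of 5 days, and the libraries did not overlap at days 12 and 18. The mean difference over days was -0.17 ± 0.037 on the log2(CPM + 1) scale (limma adjusted p = 0.000727). At day 18 it was -0.38 ± 0.084 (adjusted p = 0.000485). These 2 calls held under every alternative run, and the mean over days ranged from -0.18 to -0.12. At 0.16 and 1.26 µM, GRIK4 at day 18 was at 74.9 ± 11.4 and 72.6 ± 10.3 CPM, and both doses overlapped 0 µM. At 1.26 µM it passed after the correction for GC content and length (-0.28, adjusted p = 0.0247).

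GRIK2 was higher with Pb at day 18, in the direction opposite to GRIK4. At that day it was at 33.9, 34.7 and 40.4 CPM without Pb, 39.7, 49.8 and 40.9 at 0.16 µM, 49.0, 44.8 and 47.5 at 1.26 µM, and 55.7, 47.6 and 50.1 CPM at 10 µM. All libraries at 1.26 and 10 µM lay above those at 0 µM, and neighbouring doses overlapped. The difference from 0 µM was 0.37 ± 0.10 at 1.26 µM (limma adjusted p = 0.0126) and 0.48 ± 0.10 at 10 µM (adjusted p = 0.000256). The call at 10 µM held under all alternatives run. That at 1.26 µM was lost without replicate 1 of day 18 at 0 µM (0.32, adjusted p = 0.177) and when the fit held only these 2 groups (adjusted p = 0.352). Over all days the difference at 10 µM was 0.15 ± 0.045 (adjusted p = 0.0188), but 0.06 without day 18 (adjusted p = 0.502) and 0.12 without replicate 1 of day 6 at 10 µM (adjusted p = 0.052). At day 15 the libraries at 10 µM, 60.2, 58.4 and 55.5 CPM, also lay above the 50.9, 50.4 and 47.6 CPM without Pb, without passing the test over all genes. The difference between 10 and 0 µM varied by day (moderated F test over 4 contrasts, limma adjusted p = 0.0283). Of the 23 genes 3 passed this test, against 21.7% of all genes, and edgeR called 1.

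GABRP was lower with Pb at day 18. It was at 1.5, 2.15 and 1.57 CPM without Pb, at 1.74, 1.41 and 1.35 CPM at 0.16 µM, at 0.978, 1.44 and 0.866 at 1.26 µM, and at 0.646, 0.635 and 0.142 CPM at 10 µM. The 10 µM libraries held 16, 17 and 3 reads and lay below all others of that day. The difference at 10 µM was -0.91 ± 0.18 (log2(CPM + 1) scale, limma adjusted p = 8.96e-05) and held under all alternatives run. It differed by day (F test adjusted p = 0.00838, but 0.303 by edgeR). The mean over days was -0.23 ± 0.078 (adjusted p = 0.0376), lower on 3 of 5 days, and was -0.06 without day 18 (adjusted p = 0.746). That mean also failed to pass by edgeR (adjusted p = 0.234) and DESeq2 (0.14), and without any of 15 single libraries. Beside it, the summed keratinocyte markers at day 18 were at 84.6 to 93.4 CPM with 10 µM and 80.4 to 119.7 CPM without Pb, and KRT5 was at 29.2, 28.3 and 36.7 CPM with 10 µM. The part of RNA from keratinocytes in the GABRP difference with Pb was not tested.

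As the mean over days, GRM8 was lower with 10 µM (-0.23 ± 0.078, limma adjusted p = 0.0349), on 4 of 5 days. It was at 2.02, 3.15 and 1.73 CPM with 10 µM at day 6 and at 1.25, 1.05 and 0.902 CPM at day 18, below all libraries without Pb on both days. Neither day passed within the day, with -0.67 ± 0.17 at day 6 (adjusted p = 0.0518). At day 15 the mean was 1.41 CPM with 10 µM and 1.14 without Pb. The mean over days was lost without day 18 (-0.18, adjusted p = 0.207), without both libraries low in long transcripts (-0.21, adjusted p = 0.0625) and without any of 9 single libraries. The F test by day gave an adjusted p of 0.049, and that call was lost in 23 of 30 fits with 1 library left out. It was also lost under 6 alternatives, edgeR among them (adjusted p = 0.0949).

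The remaining calls at day 18 concerned AMPA, NMDA and metabotropic receptor genes. GRIA3 was at 7.0, 8.27 and 10.2 CPM without Pb and at 12.7, 11.9 and 11.5 CPM at 10 µM, with no overlap (0.47 ± 0.13, limma adjusted p = 0.00642). Without replicate 1 of the 0 µM libraries it was 0.35 (adjusted p = 0.086). GRIA1 was at 0.246, 0.851 and 1.02 CPM without Pb, at 1.45, 1.18 and 1.62 at 0.16 µM, at 2.05, 2.46 and 1.58 at 1.26 µM, and at 0.566, 1.08 and 1.76 CPM at 10 µM. All libraries at 0.16 and 1.26 µM lay above those without Pb, and 10 µM overlapped them. Only 1.26 µM passed (0.85 ± 0.23, adjusted p = 0.012), and without the same replicate 1 it was 0.63 (adjusted p = 0.23). At day 6 the libraries of GRIA1 with 10 µM, 4.75, 4.59 and 2.25 CPM, lay below the 7.38, 5.87 and 6.71 CPM without Pb. This difference did not pass (-0.69 ± 0.23, limma adjusted p = 0.14), and the 2.25 CPM was in replicate 3, a library low in long transcripts. GRM7 at 1.26 µM at day 18, with 12.3, 10.8 and 12.4 CPM against 5.68, 8.82 and 9.70, passed (0.53 ± 0.17, adjusted p = 0.0305) but was 0.32 without that replicate (adjusted p = 0.42).

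GRIN2C was lower at 10 µM at day 18, with 0.364, 1.01 and 0.807 CPM against 1.56, 1.63 and 2.17 CPM without Pb and no overlap. The difference was -0.70 ± 0.22 (limma adjusted p = 0.0133), and -0.54 without replicate 1 at 10 µM (adjusted p = 0.101) or -0.61 without replicate 3 at 0 µM (adjusted p = 0.0531). GRM2 was at 1.05, 1.75 and 1.95 CPM with 10 µM against 2.51, 2.69 and 2.41 CPM, also without overlap. Its difference of -0.47 ± 0.18 (adjusted p = 0.0493) was lost under 6 alternatives, edgeR and DESeq2 among them, and without any of 5 single libraries (adjusted p up to 0.28). GRIN1, at 10.7, 14.2 and 9.78 CPM with 10 µM against 15.1, 13.3 and 16.2 CPM, did not pass. GABRD was at 16.1 ± 1.52 CPM with 10 µM at day 18 against 15.5 ± 0.722 CPM without Pb, and over the 5 days its difference was 0.04 ± 0.068.

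**Figure D5:**
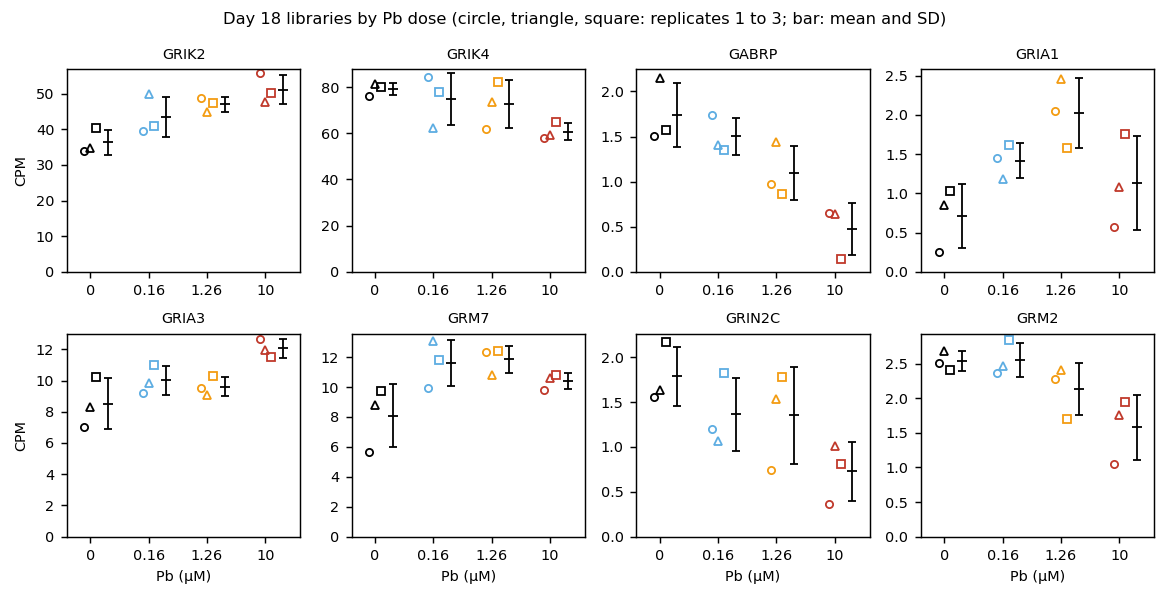
CPM of 8 genes in the 12 libraries of day 18 by Pb dose, with mean and SD of 3 libraries. GRIK2 and GRIA3 are higher and GRIK4, GABRP, GRIN2C and GRM2 lower at 10 µM, while GRIA1 and GRM7 have their highest means at 1.26 µM; circles at 0 µM are the library low in long transcripts.

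Genes that act with these receptors were counted from 4 lists. Of 30 genes for auxiliary subunits and scaffolds of glutamate receptors, 25 were tested, and at day 18 without Pb 10 were higher and 11 lower than at day 6 (median log2 difference 0.19, against -0.03 over all genes, of which 32.1% were higher and 34.7% lower). DLG2, which encodes the postsynaptic scaffold PSD-93, rose from 26.5 ± 1.09 to 126.7 ± 23.4 CPM (2.20 ± 0.094). CACNG4, an auxiliary subunit of AMPA receptors, fell from 163.6 ± 3.50 to 98.7 ± 5.77 CPM. HOMER2, a scaffold that binds metabotropic receptors, fell from 51.0 ± 2.70 to 17.4 ± 0.794 CPM. Over all days, 3 of the 25 were higher with 10 µM and 2 lower (median -0.01, against 0.00 over all genes, of which 6.93% were higher and 8.13% lower). GRIP1, a scaffold that binds AMPA receptor subunits, was lower (-0.26 ± 0.044, limma adjusted p = 1.17e-05), as was CACNG4 (-0.12 ± 0.021), and GRIP2 was higher (0.26 ± 0.063).

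Of 14 genes for scaffold and assembly of GABA-A receptors, all tested, 7 were higher and 4 lower at day 18 without Pb. Their median log2 difference was 0.13, against -0.03 over all genes, of which 32.1% were higher and 34.7% lower. GABARAPL1, of the family of GABARAP trafficking proteins, rose from 27.6 ± 1.56 to 93.8 ± 6.51 CPM, and with 10 µM Pb it was higher as the mean over days (0.21 ± 0.030, limma adjusted p = 5.91e-07). In all 2 of the 14 genes were higher with Pb and 1 lower, where 15.1% of all genes differed. Of 17 genes for glutamate synthesis and transport 12 were tested, with 4 higher and 5 lower at day 18, where 66.8% of all genes differed. With 10 µM, over all days, 3 of the 12 were lower and 0 higher, against 8.13% and 6.93% of all genes. GLUL, which forms glutamine from glutamate, fell from 190.5 ± 11.7 to 124.4 ± 8.23 CPM by day 18 and differed by -0.08 ± 0.024 with Pb.

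Of 16 genes for GABA synthesis, transport and breakdown and for GABA-B receptors 12 were tested, with 5 higher and 4 lower at day 18 (66.8% of all genes differed). GABBR1, the GABA-B receptor subunit that binds GABA, rose from 36.1 ± 1.31 to 138.5 ± 26.1 CPM (1.89 ± 0.094). SLC32A1, the vesicular GABA transporter, went from 0.249 ± 0.129 to 2.98 ± 0.553 CPM. With 10 µM Pb over all days 1 of the 12 was higher and 0 lower (15.1% of all genes differed), the chloride importer SLC12A2 (0.15 ± 0.039, limma adjusted p = 0.00685). At day 18 GABBR2, the second GABA-B subunit, was at 1.95 ± 0.309 CPM with 10 µM against 0.544 ± 0.272 CPM without Pb (0.94 ± 0.16, adjusted p = 1.01e-05).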

How the data were processed

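The authors deposited 1 table of CPM values with 37334 genes and 60 libraries, made with PlexWell, a plate-based barcoding method. FastQC, MultiQC, STAR, featureCounts and the build GRCh38 are named in the submitters' processing notes. Versions, annotation and strand setting were not given in the sources used here. All values were whole multiples of 1 read within 0.01 read (100% of values), so whole reads were recovered. Intervals and floors cover counting error only.

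The filter kept genes that reached 1 CPM in 3 or more libraries. limma 3.58.1 (R 4.3.3) was fitted to log2(CPM + 1), 1 mean per group over all 60 libraries (40 residual degrees of freedom, intensity trend), and two-sided p-values were adjusted by Benjamini-Hochberg over all genes kept. A fold on this scale understates the change of low genes. Alternatives were edgeR 4.0.16 and DESeq2 1.42.0 on the recovered reads, a pseudocount of 0.25, no filter, median-ratio rescaling, only the groups compared, a replicate block, a GC and length spline correction, and leaving out libraries or day 18. The model was tested on simulated data. Errors beside CPM are SDs over 3 dishes, and p-values measure the spread between dishes of 1 line at 1 passage.

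The genes described, the lists and the tests were chosen with earlier results of these data known. Counts cover all genes of the families, but some genes are not reported here. Values per library are given for those with the largest levels or a Pb call over days, and for GRIA1, GRIN2C, GRIN2D and GRM2, chosen after their values were seen. Up to 3 genes per list are named by smallest p. Levels per kilobase use merged exons of GENCODE v29, and positions and start regions are from RefSeq GRCh38.p14. Exons of GRIN1 also overlap LRRC26 by 5 bases, and those of GABRG3, GABRP, GRID1 and GRM3 overlap antisense transcripts not used here.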

Additional observations from a re-analysis of the deposited data

Results flagged for a closer look

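In 3 receptor genes the difference between 10 and 0 µM Pb varied between days by a moderated F test over 4 contrasts in limma: GABRP (adjusted p = 0.00838), GRIK2 (adjusted p = 0.0283) and GRM8 (adjusted p = 0.049). GABRP was lower by 0.91 at day 18 and GRIK2 higher by 0.48 at day 18, on the log2(CPM + 1) scale. GRM8 was lower by 0.67 at day 6 and had a slightly higher mean with Pb at day 15. Over the alternatives that kept all libraries or left out 2, the adjusted p of GABRP ran from 0.00838 to 0.303, that of GRIK2 from 0.00516 to 0.0786 and that of GRM8 from 0.0394 to 0.138. Of these 9 fits, the reported one included, the call was lost in 1 for GABRP, 3 for GRIK2 and 6 for GRM8. Of the 30 fits with 1 library left out, it was lost in 1 for GABRP, 3 for GRIK2 and 23 for GRM8.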

How the results depend on the processing

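Of the 57 calls of a receptor gene in a comparison, 469 values under the alternatives stayed past the threshold and 48 did not, and with 1 library left out 369 stayed and 69 did not. No called value changed sign. A further 24 values under the alternatives and 21 with 1 library left out passed where the reported value had not. The count at day 9 was 1 when only the groups compared were fitted, against 2, and 1 to 3 with 1 library left out. The corresponding ranges were 11 to 13 at day 12, 10 to 12 at day 15 and 14 to 18 at day 18. At 10 µM over all days 4 genes became 2 without day 18 (GRIK4 and GRM3). Without the filter on low values there were 4, but GABRP and GRM8 were replaced by GABRR1 and GRIK3. With 1 library left out the count was 1 to 5. The range with 1 library left out was 0 to 1 at 1.26 µM over all days, 0 to 2 at day 6, 0 to 1 at day 12 and 4 to 6 at day 18 with 10 µM. For Pb by day, 3 genes became 1 by edgeR, 1 when only the groups compared were fitted, 1 without the 2 libraries low in long transcripts, 6 after GC and length correction, and 1 to 5 with 1 library left out. DESeq2 was not run for this test. The cause of these shifts was not tested.

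With the replicate number as a block, the count at 10 µM at day 6 was 1 in place of 0 (GRM8), and the other counts were 2, 13, 12 and 17 for the days, 4 for 10 µM over days and 6 at day 18. Over all groups and days, same-numbered libraries of different groups had a median correlation of 0.0148, and 25 of 60 libraries correlated best with their own number. These values were not taken within days, so they cannot show whether the numbers pair dishes of the same day. Depth limits the genes near 1 CPM, where 3 reads are 0.0594 to 0.181 CPM.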

Other observations

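Among the genes below the filter, 2 stood apart at day 18. They were chosen after their values were seen, so neither the separation of these values nor a test on them can serve as support. GABRR1, which encodes the rho 1 subunit of GABA receptors best known from the retina, had 6, 5 and 0 reads in the 3 libraries without Pb, 10, 20 and 13 reads at 0.16 µM, 17, 6 and 9 at 1.26 µM and 20, 39 and 29 reads at 10 µM. In CPM these are 0.164, 0.170 and 0 without Pb and 0.808, 1.46 and 1.38 at 10 µM. All libraries at 10 µM lay above all others of that day. At day 6 GABRR1 had no read without Pb or at 10 µM. GRIK3, a kainate receptor gene, had 14, 18 and 8 reads without Pb at day 18 and 3, 2 and 1 reads at 10 µM, which is 0.383, 0.613 and 0.482 CPM against 0.121, 0.0747 and 0.0475 CPM. In a fit without the filter on low values, both passed at 10 µM, at day 18 and as the mean over days (limma with Benjamini-Hochberg adjustment). GABRR1 also passed in that fit at day 18 at 0.16 and at 1.26 µM, higher at both doses. GABRE and GRIN3A, also below the filter, passed there at 1.26 µM at day 18. The share of all genes that passed in that fit is not given here.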
